A study of Mus musculus with 24 samples.

Results

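Open chromatin of megakaryocyte progenitors (CFUMK) was compared with that of the stem and multipotent progenitor fraction of bone marrow (LSK). The 2 CFUMK peak lists were set beside the 2 LSK peak lists, 4 of the 24 libraries of an ATAC-seq series. The series spans 12 mouse hematopoietic cell types, of which 10 are primary and the others are cell lines. The lines are G1E, which lacks a working Gata1 gene, and its subline G1E-ER4+E2, treated with estradiol to activate a GATA1-ER hybrid protein. Both lines count in the elements of the 12 types and in the spread used to test gene windows. The CFUMK libraries held cells negative for CD4, CD8, IL7Ra, CD11b, Ly6g, CD45R, Ter119 and Sca1 and positive for cKit, CD41 and CD61. The LSK libraries held cells negative for the same lineage proteins and positive for cKit and Sca1, a gate that contains stem cells together with multipotent progenitors. Both types were sorted without culture or treatment from the bone marrow of adult male C57BL6 mice, 5 to 8 weeks old and with no genetic change given, and each list came from a pool of cells. Replicates were either cells of different groups of mice or separate aliquots of 1 sort, and which of these held here is not given in the sources used, so the spread between replicates may be technical in part. The libraries of the LSK cells were numbered 987 and 1196, outside the 2 runs of numbers that hold CFUMK (847 and 855) and the other marrow progenitors, so the run of libraries and the cell type cannot be told apart.

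ATAC-seq marks DNA that the transposase Tn5 can reach, which in blood cells means mostly promoters, enhancers and insulators. Megakaryocytes make platelets and share with stem cells the adhesion protein Vwf and regulators of the ETS, RUNX and GATA families. In the classical tree, stem cells give common myeloid progenitors (CMP), these give granulocyte-monocyte progenitors (GMP) and megakaryocyte-erythroid progenitors (MEP), and MEP give CFUMK and erythroid progenitors (CFUE), while a direct route from stem cells to megakaryocytes has also been described. The comparison bears on how much of the LSK landscape is still open in CFUMK.

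A peak shared by both replicates of its type, with an overlap of 1 bp or more, counted as reproducible, and such peaks of the 12 types were merged into 207525 elements. An element was called kept when it held a reproducible peak in CFUMK and in LSK, lost when it held one in LSK and not in CFUMK, and gained when it held one in CFUMK and not in LSK. In total 132583 elements belonged to CFUMK or LSK, 123496 to CFUMK and 69160 to LSK. Gained elements without any peak in either LSK library, and lost elements without any peak in either CFUMK library, are called strict below.

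The elements of each class with the highest scores near genes of blood lineage lists are shown first, as 160 bases about the peak centre on the plus strand of mm10 (GRCm38), so that the DNA behind the classes can be seen. Capitals mark matches, on either strand, to the letters of the GATA family (AGATAA, and the variant with T in front, TGATAA), of ETS factors (AGGAAGT), of RUNX factors (TGTGGTT) and of the E-box of TAL1 (CAGATG). The score is the number the peak caller deposited for each peak, and it ranks peaks within a library. The strongest strict gained elements beside platelet genes lay near Nbeal2 (chr9:110668691-110668850, upstream of a gene needed for platelet alpha granules), Cd9 (chr6:125460009-125460168, downstream of a platelet tetraspanin gene), Tbxa2r (chr10:81351811-81351970, downstream of the thromboxane receptor gene) and Plek (chr11:16993025-16993184, in an intron of the pleckstrin gene).
Nbeal2: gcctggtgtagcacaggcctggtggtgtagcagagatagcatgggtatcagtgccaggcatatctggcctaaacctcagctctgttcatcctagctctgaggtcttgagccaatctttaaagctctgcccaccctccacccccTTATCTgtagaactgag
Cd9: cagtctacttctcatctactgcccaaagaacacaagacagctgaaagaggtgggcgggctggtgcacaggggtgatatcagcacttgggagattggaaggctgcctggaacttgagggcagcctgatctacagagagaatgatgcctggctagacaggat
Tbxa2r: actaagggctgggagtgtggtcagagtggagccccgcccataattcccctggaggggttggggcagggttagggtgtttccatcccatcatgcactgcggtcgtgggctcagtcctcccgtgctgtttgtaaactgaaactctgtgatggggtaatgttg
Plek: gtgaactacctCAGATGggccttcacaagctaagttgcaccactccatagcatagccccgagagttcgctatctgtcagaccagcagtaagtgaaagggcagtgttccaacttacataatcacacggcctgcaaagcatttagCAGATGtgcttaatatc
The Nbeal2 element scored 52.9 and 64.9 in CFUMK and had no peak in LSK, and it holds 1 GATA match. The Plek element scored 22.0 and 21.5 in CFUMK, against no peak in LSK, and holds 2 E-box matches. The Cd9 and Tbxa2r elements hold none of the letters searched. The Nbeal2 element lay 14610 bp from the nearest start of Nbeal2 but 1855 bp from another transcript start. The Tbxa2r element lay 23160 bp from the nearest start of Tbxa2r but 1407 bp from another, and was also called in GMP and CFUE, among others. Which genes these elements serve was not tested.

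A second pair was added after the motif shares had been seen, and was chosen by score alone among strict gained distal elements that were called in MEP and not in CMP. These lay in introns of Notch2 (chr3:98061741-98061900, a Notch receptor gene) and Med20 (chr17:47617746-47617905, a Mediator subunit gene).
Notch2: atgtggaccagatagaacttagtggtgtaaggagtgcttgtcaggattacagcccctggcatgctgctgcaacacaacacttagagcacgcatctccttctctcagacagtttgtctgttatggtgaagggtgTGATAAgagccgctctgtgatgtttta
Med20: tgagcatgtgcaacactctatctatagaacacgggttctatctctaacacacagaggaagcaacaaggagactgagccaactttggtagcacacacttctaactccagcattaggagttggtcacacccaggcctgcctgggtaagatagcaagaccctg
The Notch2 element scored 42.8 and 50.2 in CFUMK, had no peak in LSK and holds 1 GATA match, and the Med20 element scored 42.2 and 47.7 in CFUMK, had no peak in LSK and holds no match.

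The strongest strict lost elements beside stem cell or lymphoid genes lay near Cd79a (chr7:24907470-24907629, at a transcript start close to a B cell receptor gene), Erg (chr16:95459522-95459681, at an internal start of an ETS factor gene of stem cells and megakaryocytes), Hlf (chr11:90365019-90365178, in an intron of a stem cell transcription factor gene) and Procr (chr2:155742332-155742491, upstream of a stem cell surface receptor gene).
Cd79a: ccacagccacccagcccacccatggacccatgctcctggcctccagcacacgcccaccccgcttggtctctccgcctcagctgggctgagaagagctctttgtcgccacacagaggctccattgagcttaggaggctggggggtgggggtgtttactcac
Erg: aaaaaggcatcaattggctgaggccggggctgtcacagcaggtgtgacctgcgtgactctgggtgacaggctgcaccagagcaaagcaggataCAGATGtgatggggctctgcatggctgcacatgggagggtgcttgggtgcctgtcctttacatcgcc
Hlf: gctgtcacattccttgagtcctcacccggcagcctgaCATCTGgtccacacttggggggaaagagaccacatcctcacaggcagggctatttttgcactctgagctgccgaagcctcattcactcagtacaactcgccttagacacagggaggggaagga
Procr: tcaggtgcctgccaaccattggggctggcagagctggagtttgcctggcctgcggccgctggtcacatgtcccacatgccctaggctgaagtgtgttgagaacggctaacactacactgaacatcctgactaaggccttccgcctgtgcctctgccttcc
These had no peak in CFUMK, against LSK scores of 12 and 10.3 at Cd79a, 11.0 and 8.01 at Erg, 7.65 and 8.01 at Hlf and 7.34 and 9.46 at Procr. None holds a GATA, ETS or RUNX match, and Erg and Hlf hold 1 E-box match each. For contrast, a kept element with a high score in both types was the promoter of Zfpm1 (chr8:122281878-122282037), the gene of the GATA cofactor FOG1, which scored 139.1 and 136.9 in CFUMK and 73.8 and 37.7 in LSK.
Zfpm1: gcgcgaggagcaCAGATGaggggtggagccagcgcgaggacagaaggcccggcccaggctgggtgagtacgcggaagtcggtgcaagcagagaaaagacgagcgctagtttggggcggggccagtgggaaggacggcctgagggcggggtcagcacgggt
It holds 1 E-box match and was called in all 12 types, so it is a broadly open promoter.

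Most of the LSK landscape was open in CFUMK, and CFUMK carried about as many further elements as shared ones, with the larger set depending on the call rule, the list length and the LSK library. Of 123496 CFUMK elements, 63423 (51.4%) were gained and 60073 (48.6%) were shared with LSK. Of 69160 LSK elements, the same 60073 (86.9%) were kept and 9087 (13.1%) were lost. The gained set included 30086 strict elements, 24.4% of the CFUMK elements, and the lost set included 5531, or 7.997% of the LSK elements. These shares are descriptions of 2 against 2 libraries, and no test was made on them.

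The size of the gained set depended on 1 LSK library. Of the gained elements, 29826 had a peak in LSK replicate 1 only, 3083 in LSK replicate 2 only, and 428 had peaks in both that did not overlap each other. With LSK replicate 1 alone standing for LSK, 26.9% of CFUMK elements were gained, and with LSK replicate 2 alone 48.6% were. The lost set was less one-sided, with 2293 elements having a peak in CFUMK replicate 1 only and 1172 in CFUMK replicate 2 only. The strict sets need no peak in either library of the other type, and most of what follows is given for them as well.

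The libraries behind these counts held 202625 and 197175 peaks in CFUMK and 200857 and 135309 peaks in LSK, and LSK replicate 2 was the short list of the 4. The mean was 199900 ± 3854 in CFUMK and 168083 ± 46349 in LSK (SD, n = 2 each), with an exact permutation p of 0.667, in a design where no split of 2 against 2 libraries can reach 0.05. Without LSK replicate 2 the difference was -957 peaks. Read counts were not in the lists, but scores below 10 fell on whole steps in all 4 libraries, and the step put depth at 63.9% and 48.5% of the deepest library of the series in CFUMK and at 57.3% and 57.0% in LSK. This measure takes the step as inverse to depth. It holds only if scores are read counts scaled to a common total, which is not stated. Under that assumption the 2 LSK libraries were of nearly equal depth. Of the peaks of CFUMK replicates 1 and 2, 84.6% and 87.1% overlapped a peak of the other replicate. Of the peaks of LSK replicate 1, 55.3% overlapped LSK replicate 2 and 74.8% overlapped CFUMK replicate 1, so this library shared more peaks with CFUMK than with its own replicate. LSK replicate 2 shared 78.2% of its peaks with LSK replicate 1 and 73.8% with CFUMK replicate 1. With each of the 4 lists cut to the 135309 highest-scoring peaks, 44.4% of CFUMK elements were gained.

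Position separated gained from kept elements. Of gained elements 85.7% were distal, more than 1 kb from every annotated transcript start, against 77.6% of lost and 63.5% of kept elements. The strict sets stood at 88.4% for gained and 79.97% for lost. Of all 207525 elements of the 12 types 77.6% were distal, so lost elements stood at the share of all elements. Among promoter elements of CFUMK 29.3% were gained, and among its distal elements 58.7% were. Among promoter elements of LSK 91.5% were kept, and among its distal elements 84.4% were. Gained elements were most frequent in introns, 61.0% of the CFUMK intronic elements, against 56.5% between genes and 53.7% in exons. With distance from the nearest transcript start the lost share of LSK elements was 13.9% at 1 to 5 kb, 14.9% at 5 to 20 kb, 17.7% at 20 to 100 kb and 23.8% beyond 100 kb, where 1134 LSK elements lay. The gained share of CFUMK elements was 57.7%, 58.6%, 59.6% and 62.2% over the same steps. Kept elements were also wider, with a median of 352 bp, against 251 bp for gained, 244 bp for lost and 250 bp for all elements. No peak was longer than 150 bp, and elements merge the peaks of all 12 types. Width is therefore not independent of the number of types in which an element was called, and is no separate trait.

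**Figure D1:**
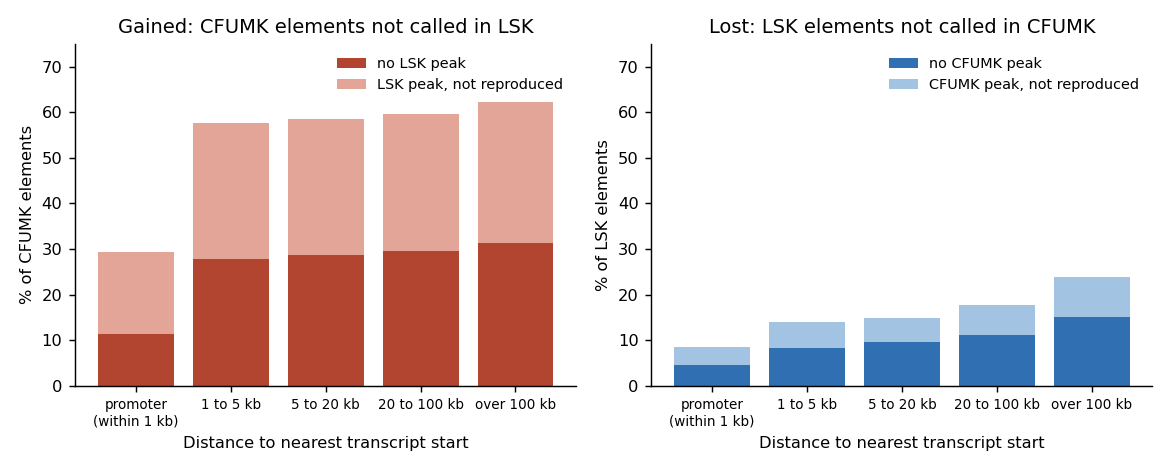
Percent of elements gained (left, of CFUMK elements) and lost (right, of LSK elements) by distance from the nearest transcript start. Dark parts of the bars are elements with no peak in either library of the other type and light parts those with a peak that was not reproduced, and the gained share was 29.3% at promoters and 57.7% to 62.2% beyond 1 kb.

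Turnover was concentrated in weak elements. When CFUMK elements were ranked by score within CFUMK and cut into 5 equal groups from low to high, 19.8%, 30.6%, 44.9%, 61.8% and 86.1% of them were also called in LSK. When LSK elements were ranked in the same way, 67.2%, 82.1%, 90.1%, 95.4% and 99.4% were kept. Within these LSK groups promoter elements were kept in 66.4%, 82.9%, 90.5%, 96.8% and 99.8%, from low to high. The distal shares were close, at 67.4%, 81.9%, 90.0%, 94.7% and 98.6%. The highest group held 8972 promoter and 4860 distal LSK elements. The strongest group of distal CFUMK elements still held a gained minority, 76.2% of its 11943 elements being shared, whereas the strongest group of promoter elements was shared in 95.4%.

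**Figure D2:**
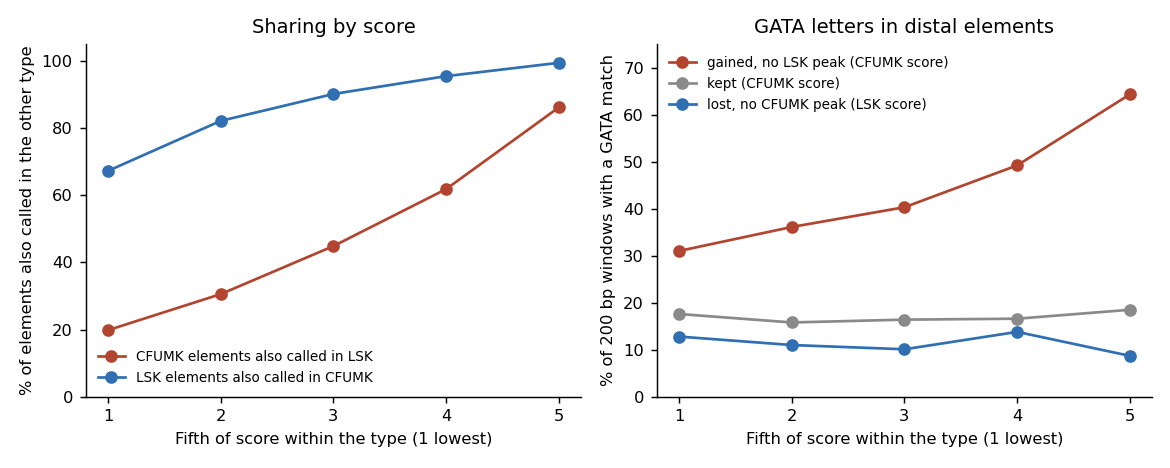
Left, percent of CFUMK elements also called in LSK and of LSK elements also called in CFUMK, in 5 equal groups by score from low to high. Right, percent of 200 bp windows of distal elements with GATA letters, for strict gained, kept and strict lost elements. The groups on the right differ from those on the left, being cut over distal elements by the highest score in the 2 libraries. Only the strict gained line climbed, with 31.0% in the lowest and 64.3% in the highest group.

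By the share of LSK elements held, CFUMK came after CMP, an order that depends on list length. Of the LSK elements, CFUMK kept 86.9%, against 90.3% called in CMP, 82.0% in GMP, 74.0% in immature megakaryocytes (iMK), 57.5% in MEP, 48.7% in blood monocytes (MON), 45.9% in blood neutrophils (NEU), 34.0% in erythroblasts (ERY) and 33.0% in CFUE. For distal elements the values were 84.4% in CFUMK, 89.0% in CMP, 77.9% in GMP, 68.6% in iMK and 47.1% in MEP. Over pairs of single libraries the kept share ranged from 84.8% to 87.1% in CFUMK, 82.8% to 91.5% in CMP and 76.4% to 86.5% in GMP, so CFUMK overlapped both neighbours, whereas MEP, at 51.7% to 60.6%, lay below. All these comparisons share the LSK libraries, and a longer list holds more of LSK, with 123496 elements in CFUMK, 107984 in CMP, 113841 in GMP, 97709 in iMK, 75924 in MEP and 43445 in NEU. Taken as a share of the elements of either type, the overlap with LSK was 45.3% for CFUMK, 54.5% for CMP, 44.9% for GMP and 44.2% for iMK, so the lead of CFUMK over GMP and iMK nearly vanished. The correlation of the calls with those of LSK over all elements (phi) is given as a description. It was 0.394 for CFUMK, 0.542 for CMP, 0.435 for NEU, 0.385 for GMP, 0.384 for MON and 0.381 for iMK. This puts NEU above CFUMK. LSK replicate 2 was numbered 1196, directly before the MON (1197 and 1198) and NEU (1199 and 1200) libraries. Whether the run of libraries has a part in this order was not tested.

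Kept elements were mostly elements of the wider myeloid progenitor pool. Of the 60073 kept elements 97.0% were called in CMP, 90.9% in GMP, 82.6% in iMK, 65.3% in MEP and 37.4% in CFUE. Of all 207525 elements of the 12 types, 52.0% were called in CMP, 54.9% in GMP, 47.1% in iMK, 36.6% in MEP and 19.7% in CFUE, so kept elements were above the share of all elements in each of these types. The median kept element was called in 5 of the 8 other primary types, and 15529 (25.9%) were called in all 8. A block of 19586 kept elements (32.6%) was called in CMP and not in MEP, so that it was open in LSK, CMP and CFUMK but not in the progenitor placed between them by the classical tree. Of this block 14140 elements had no peak in either MEP library, 74.4% were called in iMK and 89.7% in GMP. Only 568 kept elements were called in MEP and not in CMP.

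Lost elements were called in few other types and had low scores. Of the 9087 lost elements 3418 (37.6%) were called in no other primary type, against 0.501% of kept and 7.95% of gained elements. The median was 1 other type for lost and 2 for gained elements. This share was not computed over all elements. The median score percentile of lost elements was 38.7 and 39.7 in the 2 LSK libraries, against 76.7 and 68.4 for kept ones. The part of low score in the few calls was not tested. CMP still held 3901 (42.9%) that MEP did not, and 4644 (51.1%) were called in neither. Among strict lost elements 33.4% were called in CMP, 12.8% in GMP, 11.4% in iMK and 2.93% in MEP, all below the shares of all elements (52.0%, 54.9%, 47.1% and 36.6%).

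Strict gained elements were called in MEP slightly more often than the elements of all 12 types, and less often in each of the other 7 primary types. Among them 41.5% were called in MEP, against 36.6% of all elements. The shares were 40.9% in GMP, 32.8% in CMP and 26.8% in iMK, against 54.9%, 52.0% and 47.1% of all elements in the same order. They were 12.2% in CFUE, 11.8% in ERY, 6.98% in MON and 3.55% in NEU, against 19.7%, 20.01%, 25.2% and 20.9% of all elements. Of the 30086, 8636 (28.7%) were called in MEP and not in CMP, and only 5.92% of these were called in iMK and 5.98% in GMP. A further 6038 (20.1%) were called in CMP and not in MEP, and of these 75.3% were called in GMP and 53.2% in iMK. Another 3839 (12.8%) were called in CMP and in MEP. The remaining 11573 (38.5%) were called in neither, and 55.1% of them were called in GMP. Of all 63423 gained elements, 5043 (7.95%) were called in no other primary type.

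**Figure D3:**
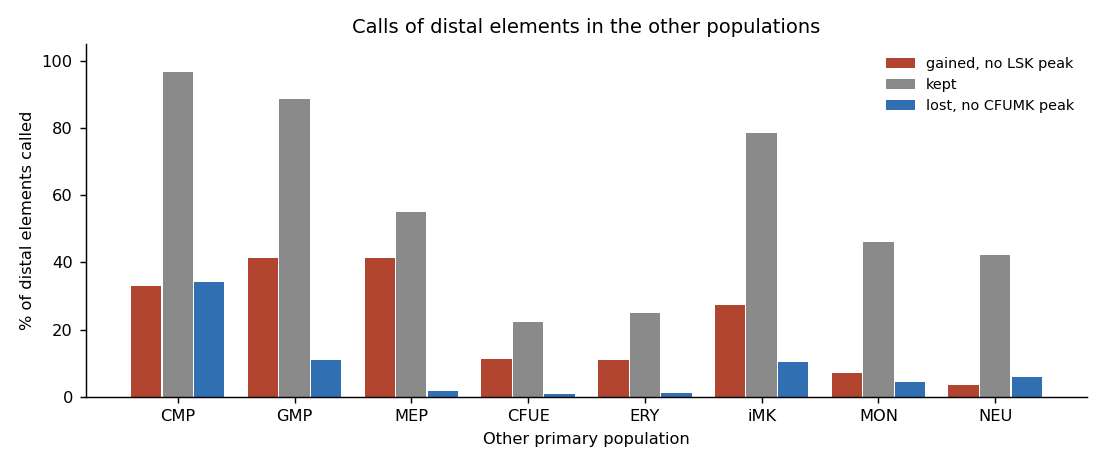
Percent of distal elements called in each of the 8 other primary types, with bars for strict gained, kept and strict lost elements. Distal strict gained elements were called in 41.3% in GMP and 41.3% in MEP, kept ones in 96.8% in CMP and 55.1% in MEP, and strict lost ones in 34.0% in CMP and 1.81% in MEP.

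The classes differed in sequence. Motifs were searched on the plus and the minus strand, in 200 bp about the highest-scoring peak of each distal element. This was a CFUMK peak for kept and gained elements and an LSK peak for lost ones. Windows of all distal elements of the 12 types were instead centred on the middle of the element. That background was thus placed differently, and the effect of this on its shares was not tested. GATA letters, read by GATA1 and GATA2, stood in 37.4% of strict gained and 31.5% of gained windows, against 17.2% of kept and 12.4% of lost windows. All distal elements of the 12 types had them in 24.4%, and windows moved by 10 kb in 19.8% to 20.7%, so gained elements were above these backgrounds and kept and lost elements below. ETS letters (AGGAAGT) stood in 14.6% of strict gained, 21.5% of kept and 20.9% of strict lost windows, against 17.1% of all distal elements and 4.49% to 5.14% of moved windows. PU.1 letters (GAGGAAGT), which contain the ETS letters and so count in both, stood in 6.57% of strict gained, 9.99% of kept and 6.99% of strict lost windows, against 7.16% of all distal elements. RUNX letters (TGTGGTT) stood in 9.61% of strict gained, 12.1% of kept and 14.7% of strict lost windows, against 9.56% of all distal elements. The motif of CTCF, the insulator protein, stood in 9.58% of kept windows, but in 2.22% of strict gained and 0.294% of strict lost windows, against 3.32% of all distal elements. MEIS letters (TGACAG), bound by a homeobox partner of stem cells, stood in 16.9% of strict gained, 17.3% of kept and 19.99% of strict lost windows. A match is a run of letters and not a bound site. The windows also differed in base content, with a mean GC of 47.5% in strict gained, 50.5% in kept and 49.7% in strict lost windows. Mean GC was 48.5% over all distal elements and 44.1% to 44.7% in moved windows. The part of base content in the motif shares was not tested.

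The GATA share of gained elements was highest in the part shared with MEP. Strict gained elements called in MEP and not in CMP held GATA letters in 65.8% of 7639 windows and ETS letters in 4.20%. Those called in GMP and in neither CMP nor MEP held GATA letters in 13.4% of 5718 windows and ETS letters in 24.2%. Those called in no other primary type held GATA letters in 27.5% and ETS letters in 9.67% of 3497 windows. These subsets were formed after the calls in other types had been seen. Distal elements of each type were also cut into 5 groups by their highest score in the 2 libraries of the type. The GATA share of strict gained windows was 31.0%, 36.1%, 40.3%, 49.2% and 64.3% over the groups by CFUMK score from low to high, while that of kept windows stayed between 15.8% and 18.5%. Strict lost windows ranged from 8.70% to 13.8% over the 5 groups by LSK score, with 69 windows in the highest. Promoter elements also had GATA letters most often in strict gained windows, 29.8%, against 7.37% of kept, 7.46% of lost and 8.21% of strict lost windows. At promoters kept elements thus did not lie above lost ones. All promoter elements of the 12 types had GATA letters in 12.9%, and moved promoter windows in 18.7% to 20.8%. Mean GC was 52.2% in strict gained, 61.1% in kept and 56.5% in lost promoter windows, and its part in these shares was not tested.

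The kept block that was called in CMP and not in MEP had a sequence profile apart from the rest of the kept elements. Its 16239 distal windows held ETS letters in 33.6%, PU.1 letters in 17.0%, RUNX letters in 16.2%, GATA letters in 12.8% and the CTCF motif in 1.49%. Kept distal elements called in CMP and in MEP, 20698 windows, held ETS letters in 11.96%, PU.1 letters in 4.61%, RUNX letters in 9.18%, GATA letters in 20.9% and the CTCF motif in 16.2%.

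**Figure D4:**
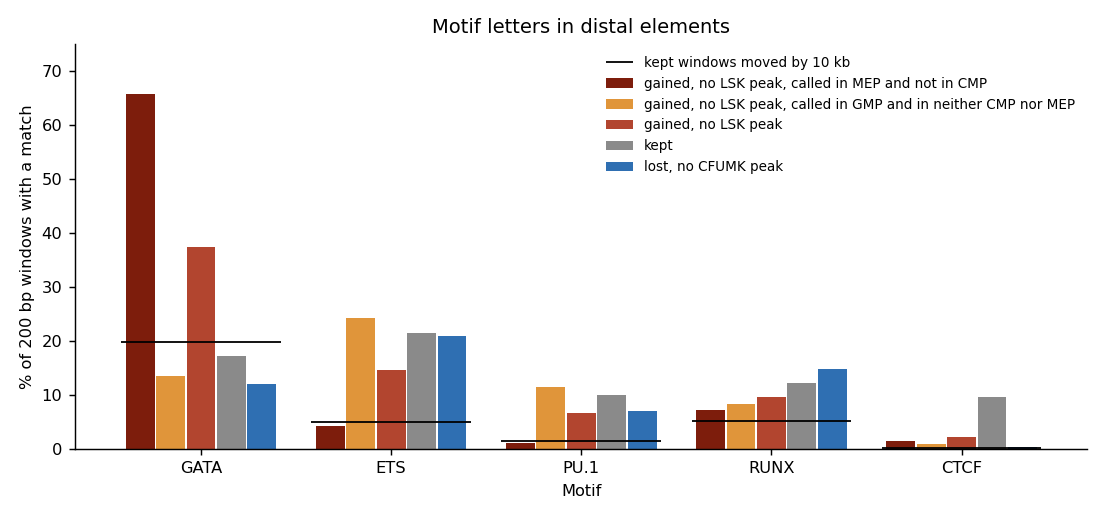
Percent of 200 bp windows of distal elements with a match to GATA, ETS, PU.1, RUNX or CTCF letters. Bars stand for 3 sets of strict gained elements (all, those called in MEP and not in CMP, and those called in GMP and in neither CMP nor MEP), kept and strict lost elements, and lines for kept windows moved by 10 kb. GATA letters stood in 65.8% of the MEP set and 13.4% of the GMP set.

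Gene windows were compared next, by the number of peaks from 20 kb before to 20 kb after the gene, per 100000 called peaks of the library. Of 17047 windows of protein-coding genes tested with limma, 4 had more peaks in CFUMK (0.0235% of those tested) and 1 had fewer (0.00587%) at a Benjamini-Hochberg adjusted p under 0.05. At unadjusted p under 0.05, 598 windows had more and 711 had fewer. The median log2 fold change, CFUMK over LSK, was -0.07, and it was 0.21 when the peaks were not scaled to the list length. Without regard to the test, both CFUMK values lay above both LSK values in 3001 windows (17.6%) and below in 4657 (27.3%). Peak numbers of the 5 called windows are given first, each as CFUMK replicates against LSK replicates.

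Clca3a2, a gene of the chloride channel accessory family, had 16 and 17 peaks in CFUMK, against 3 and 2 in LSK, a log2 fold change of 2.06 ± 0.295 (SE, limma adjusted p = 0.000262). The groups stood well apart, and 18 and 17 peaks were called in MEP and 24 and 19 in CFUE, against 5 and 5 in iMK. Gpc4, a glypican of the cell surface, had 13 and 17 peaks in CFUMK, against 5 and 1 in LSK (log2 fold change 1.92 ± 0.351, limma adjusted p = 0.0132), with 21 and 20 in MEP and 4 and 9 in iMK. Both windows had most peaks in MEP or erythroid cells. E330021D16Rik had 16 and 14 peaks in CFUMK, against 2 and 2 in LSK (2.13 ± 0.378 on the log2 scale, limma adjusted p = 0.0130), and 19 and 18 in iMK. Abca8a, an ABC transporter gene, had 8 and 5 peaks in CFUMK, against 0 and 0 in LSK, with 16 and 15 in iMK. Its fitted log2 fold change of 2.60 ± 0.485 (limma adjusted p = 0.0139) depends on the prior of 1 peak, because LSK had none, and is no bound on the fold.

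Sprr2a2, a cornified envelope gene of epithelia, was the window with fewer peaks, with 1 and 0 in CFUMK, against 7 and 6 in LSK (log2 fold change -2.68 ± 0.521, limma adjusted p = 0.0263). Sprr2a2, Clca3a2 and Abca8a lie in clusters of related genes, whose copies short reads may not tell apart, so their peak numbers are uncertain. The calls were unstable. Under the alternatives in which each was tested, Clca3a2 was called in 13 of 15, Gpc4 in 9 of 15, E330021D16Rik in 5 of 14, Sprr2a2 in 5 of 12 and Abca8a in 3 of 13. The number of windows with more peaks was 57 without LSK replicate 1, 1 without LSK replicate 2, 1 without CFUMK replicate 1 and 0 without CFUMK replicate 2, and the number with fewer was 6, 0, 0 and 0 in the same order.

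**Figure D5:**
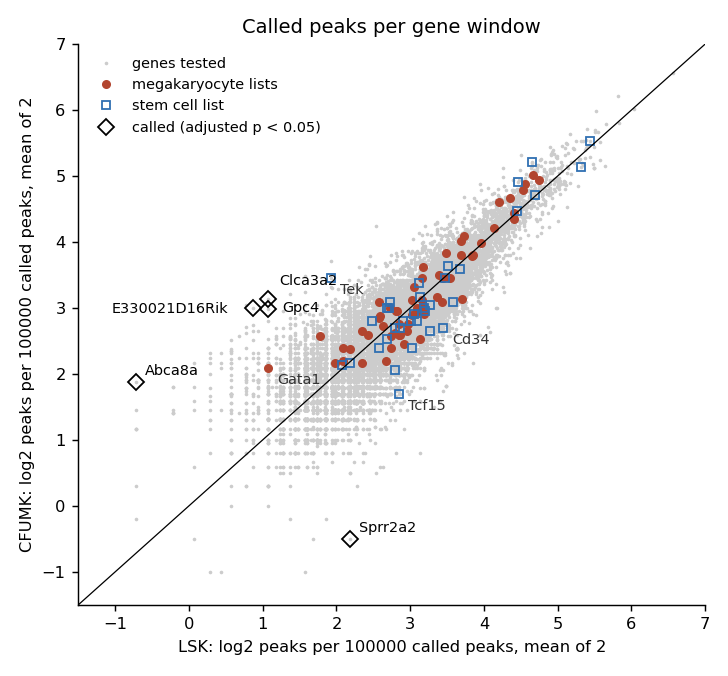
Mean log2 peaks per 100000 called peaks of each tested gene window in CFUMK (vertical axis) against LSK (horizontal axis), means of 2 libraries. Filled circles are megakaryocyte genes, squares stem cell genes and diamonds the 5 called windows, and the line marks equal values. Sprr2a2 lies below the line and the other 4 called windows above it, while most list genes lie close to it.

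No gene of the lineage lists passed the limma test in either direction, and the lists differed little from all genes in the median log2 fold change of their windows. Among megakaryocyte and platelet genes, 39 windows were tested, with a median log2 fold change of 0.10, 7 above, 6 below and 1 at unadjusted p under 0.05. Among 22 megakaryocyte regulators the median was -0.01, with 4 above, 4 below and 2 at unadjusted p under 0.05. Among 41 stem cell genes it was -0.02, with 9 above, 12 below and 6 at unadjusted p under 0.05. Among 34 lymphoid genes it was -0.10, with 6 above, 12 below and 5 at unadjusted p under 0.05. For markers of other cell types that a gate could hold, the median was 0.09 over 24 granulocyte genes and 0.00 over 34 erythroid genes. It was 0.24 over 14 mast, basophil and eosinophil genes and -0.18 over 21 monocyte genes. In that order, 6, 12, 4 and 4 windows lay above, 4, 8, 0 and 7 below, and 3, 8, 3 and 0 were at unadjusted p under 0.05. The erythroid windows thus lay above in 35.3% and below in 23.5%. Over all 17047 tested windows, 1309 were at unadjusted p under 0.05. Above and below mean here that the 2 CFUMK values did not overlap the 2 LSK values, as 17.6% and 27.3% of all tested windows did in each direction.

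By elements, stem cell windows had the lowest kept share of the lists when promoter and distal elements were pooled, but not in either position alone. LSK elements in windows of 42 stem cell genes were kept in 82.9%, against 87.9% in windows of all genes, and 12.1% (41 elements) had no peak in CFUMK, against 7.32% in all genes. The corresponding kept shares were 90.6% for megakaryocyte and platelet genes, 88.3% for megakaryocyte regulators, 85.9% for lymphoid genes, 93.9% for granulocyte genes, 88.7% for erythroid genes and 96.2% for mast, basophil and eosinophil genes. The gained share of CFUMK elements was 49.7% in megakaryocyte and platelet, 49.3% in stem cell and 46.8% in lymphoid windows. It was 54.2% in granulocyte and 56.2% in erythroid windows, against 49.5% in all genes. The strict gained share was 22.55% in megakaryocyte and platelet, 25.99% in stem cell and 19.87% in lymphoid windows. It was 20.2% in granulocyte and 27.35% in erythroid windows, against 23.44% in all genes. Granulocyte windows thus lay above all genes in the gained share and below them in the strict one. Among distal elements the lowest kept share was that of lymphoid windows, 80.9%, against 83.4% in stem cell windows and 85.2% in all genes. Among promoter elements it was that of 20 marker genes of other tissues, with 12 of 15 LSK elements kept, against 81.9% in stem cell windows and 91.8% in all genes. Several genes stand in more than 1 list, and these shares carry no test.

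Genes of the sort differed little in peak number. Itga2b, which encodes CD41, had 12 and 13 peaks in CFUMK, against 13 and 11 in LSK, and its promoter element was open in both types, with scores of 14.5 and 14.9 in CFUMK and 21.2 and 16.5 in LSK. Itgb3, which encodes CD61, had 35 and 28 peaks in CFUMK, against 34 and 12 in LSK. Ly6a, which encodes Sca1, had 7 and 9 peaks in CFUMK, against 7 and 6 in LSK, although Sca1 protein separated the 2 gates. Kit, present on both, had 21 and 27 peaks in CFUMK, against 21 and 15 in LSK. Because these genes defined the gates, they are given as a check and not as a result.

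The platelet genes Pf4 and Vwf already held many peaks in LSK. Pf4, which encodes platelet factor 4, had 15 and 14 peaks in CFUMK, against 15 and 13 in LSK, and its promoter element scored 16.3 and 14.0 in CFUMK and 28.4 and 15.7 in LSK. Of its 9 elements in CFUMK 4 were kept and 5 gained, and the strongest gained one, 3384 bp downstream of the start, scored 35.1 and 41.3 in CFUMK, against 9.57 and no peak in LSK. Vwf, the adhesion protein of platelets and of a stem cell subset, had 36 and 30 peaks in CFUMK, against 31 and 14 in LSK, with 7 elements kept, 2 lost and 14 gained. Its strongest element, 26155 bp into the gene, was kept and scored 85.7 and 101.5 in CFUMK, against 54.5 and 26.9 in LSK. Only 4 of the 14 gained Vwf elements had no LSK peak at all.

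Of 21938 genes, 273 (1.24%) had a peak within 500 bp of a start in both CFUMK and neither LSK library, among them Elane, Klf1 and Fcer1a of the granulocyte, erythroid and mast cell lists. Another 176 (0.802%) had one in both LSK and neither CFUMK library, among them Myl9, a myosin light chain gene. The lost Myl9 promoter element, centred 11 bp after the start, had no peak in CFUMK, against scores of 3.19 and 5.29 in LSK.

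Regulators shared by the megakaryocyte and erythroid lines mixed kept and gained elements. Gata1, the GATA factor of both lines, had 7 and 8 peaks in CFUMK, against 5 and 1 in LSK (log2 fold change 1.01 ± 0.380, limma adjusted p = 0.447). Its element 6599 bp downstream of the start was kept, with scores of 29.5 and 37.1 in CFUMK, against 7.18 and 2.24 in LSK. The other 3 CFUMK elements of Gata1 were gained, and each had a peak in LSK replicate 1. Gfi1b, a repressor needed for both lines, had 15 and 17 peaks in CFUMK, against 20 and 14 in LSK, with 5 elements kept, 2 lost and 7 gained, and its 2 lost elements had no CFUMK peak. Zfpm1, the GATA cofactor FOG1, had 28 and 26 peaks in CFUMK, against 27 and 15 in LSK, and 7 of its 13 gained elements had no LSK peak. Those at 4955 bp and -8096 bp from the start scored 27.5 and 33.4, and 26.0 and 26.8, in CFUMK, and were called in MEP, CFUE and ERY but not in CMP.

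Stem cell genes had more peaks in either type, and none passed the test. Cd34, a stem and progenitor surface protein, had 13 and 11 peaks in CFUMK, against 18 and 16 in LSK (log2 fold change -0.75 ± 0.272, limma adjusted p = 0.439), and kept 7 of its 8 LSK elements. Tcf15, a stem cell transcription factor, had 5 and 6 peaks in CFUMK, against 13 and 9 in LSK (-1.15 ± 0.463 on the log2 scale, limma adjusted p = 0.497). Procr, which encodes the receptor EPCR, had 6 and 9 peaks in CFUMK, against 9 and 12 in LSK, and lost 2 elements without gaining any. Peak numbers of Cd34 and Tcf15 did not overlap between the types, and those of Procr met at 9.

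Tek, the angiopoietin receptor of stem cells and endothelium, had 21 and 21 peaks in CFUMK, against 12 and 2 in LSK (log2 fold change 1.54 ± 0.435, limma adjusted p = 0.258). It gained 8 elements, and its strongest, 64263 bp into the gene, scored 14.0 and 24.7 in CFUMK, against 5.26 and no peak in LSK. Erg had 49 and 51 peaks in CFUMK, against 46 and 23 in LSK, with 11 elements kept, 3 lost and 23 gained, 11 of them without an LSK peak. Hlf had 15 and 16 peaks in CFUMK, against 20 and 11 in LSK, and its promoter element was kept, with scores of 53.8 and 47.9 in CFUMK and 23.8 and 16.8 in LSK. Mecom, a stem cell zinc finger factor, had 74 and 65 peaks in CFUMK, against 74 and 56 in LSK, with 23 elements kept, 7 lost and 20 gained.

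The lowest adjusted p among list genes was that of an erythroid gene. Car1, a carbonic anhydrase of early erythroid cells, had 18 and 17 peaks in CFUMK, against 5 and 2 in LSK (log2 fold change 1.85 ± 0.405, limma adjusted p = 0.0678). Its promoter element scored 62.2 and 70.0 in CFUMK, against 9.89 and no peak in LSK. Add2, a gene of the red cell membrane skeleton, had 27 and 26 peaks in CFUMK, against 8 and 8 in LSK (1.33 ± 0.350 on the log2 scale, limma adjusted p = 0.213), and 13 of its 15 gained elements had no LSK peak. Neither gene passed the test. At the Klf1 start, a promoter of an erythroid master factor, the element scored 30.5 and 32.8 in CFUMK, against no peak in LSK, and was called in CMP, MEP, CFUE and ERY.

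A promoter peak in both CFUMK and neither LSK library was also seen at 1 of 24 granulocyte genes, Elane, and at 1 of 16 mast, basophil and eosinophil genes, Fcer1a. At the Elane start, a promoter of neutrophil elastase, the element scored 21.9 and 22.1 in CFUMK, against no peak in LSK, and was otherwise called in CMP and GMP only. Mpo, the myeloperoxidase gene, had 16 and 21 peaks in CFUMK, against 10 and 7 in LSK (log2 fold change 0.77 ± 0.373, limma adjusted p = 0.639). Fcer1a, the IgE receptor chain of mast cells, had 3 and 4 peaks in CFUMK, against 0 and 0 in LSK. Over the whole list of 24 granulocyte genes the summed peaks were 316 and 323 in CFUMK and 328 and 173 in LSK, over 34 erythroid genes 554 and 557 in CFUMK and 534 and 308 in LSK, and over the 14 tested mast, basophil and eosinophil genes 162 and 175 in CFUMK and 151 and 82 in LSK. LSK replicate 1 was close to CFUMK in these sums and LSK replicate 2 low. The CFUMK gate removed cells with CD11b, Ly6g or Ter119, proteins of mature granulocytic and erythroid cells, and whether other cells of these lines have a part in the gains was not tested.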

How the data were processed

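The deposited lists hold HOMER peaks, one list per library, on mm10. Per the labels and the study's methods, the authors trimmed reads, mapped them with Bowtie 0.12.8, handled them with SAMtools and bedtools, and called peaks in each library. The SAMtools version differs between the processing notes and the study's methods and is not given here. The score column was deposited by the authors with each peak, its normalization is not stated, and its low values fall on whole steps. No read counts were used, so no count model was run. Replicates were not pooled.

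Elements, positions (GENCODE annotation, promoters within 1 kb of a transcript start) and motifs were computed with Python 3.11.15, pandas 2.3.3 and numpy 2.4.6. Reference sequence came from the RefSeq copy of GRCm38, the same assembly as mm10. Gene windows were tested with limma 3.58.1 (trend and robust variance) in R 4.3.3 on log2 of peaks per 100000 with a prior of 1 peak, over genes averaging 3 peaks or more, with all 24 libraries sharing 1 spread. The code was tested on simulated data.

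Windows past an adjusted p of 0.05 with groups that did not overlap were named, up to 15 each way, less those overlapping a named window by 50% or more, and any gene of the lists could be named. The members, lists and rules were chosen with earlier results of these data known. Alternatives covered call rule, list length, overlap, merging, promoter distance, window, scaling, filter, prior, libraries in the fit and each replicate left out. Some items of the lists are not reported here.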

Additional observations from a re-analysis of the deposited data

How the results depend on the processing

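The direction of the main contrasts (gained most distal, kept least) held under every alternative run, but the shares moved. The gained share of CFUMK elements was 35.1% with a call in either replicate, 44.4% with lists cut to the shortest, 49.5% with only the higher-scoring 0.5 of each list and 52.7% with a stricter overlap of 0.5 of the shorter peak, and 26.9% to 57.0% over replicates left out, so gained elements were fewer than shared ones under the first 3 of these and with either LSK replicate left out. The kept share of LSK elements was 70.8%, 83.9% and 85.9% under the first 3 of these, 85.8% with elements merged over the 2 types only, and 69.2% to 90.3% over replicates left out. The distal share of gained elements was 87.1%, 83.9% and 81.9% under the first 3, 82.9% merged over the 2 types, 85.0% with the stricter overlap, 91.2% and 77.9% with promoters within 500 bp and 2 kb, and 84.9% to 87.2% over replicates left out. That of kept elements was 71.1%, 60.8%, 53.5%, 59.7%, 63.1%, 69.4% and 57.2% in the same order, and 63.7% to 70.3%. That of lost elements was 81.8% with a call in either replicate, 70.9% merged over the 2 types, 83.7% and 70.7% with promoters within 500 bp and 2 kb, and 78.3% to 79.9%. The difference in peak number, CFUMK minus LSK, ranged from -957 without LSK replicate 2 to 64591 without LSK replicate 1.

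Windows with more peaks in CFUMK numbered 1 with gene bodies only, 1 without scaling, 1 after centring on the median gene, 25 without a filter, 26 with a prior of 3 peaks, 2 with only the 4 libraries, 27 with distal peaks only and 41 with equal peak number, and 0 to 57 over replicates left out. Windows with fewer numbered 0 with gene bodies only, without scaling, after centring, with a mean of at least 6 peaks or a prior of 0.5 peaks, 42 without a filter, 38 with a prior of 3 peaks, 2 with only the 4 libraries and 28 with equal peak number, and 0 to 6 over replicates left out. The causes were not tested. No paired analysis was possible because the library numbers do not match CFUMK with LSK samples. With 2 libraries a type, no exact test over libraries can pass 0.05, and peak lists cannot separate a closed element from one just under the caller's threshold.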

Other observations

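The X chromosome held 3366 CFUMK elements, of which 59.7% were gained, against 51.4% over all chromosomes, and 1517 LSK elements, of which 89.5% were kept, against 86.9%. Gpc4, one of the 4 windows with more peaks in CFUMK, and Gata1 lie there.

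Among 20 marker genes of other tissues, 13 windows were tested, with a median log2 fold change of 0.04. The promoter of Olig2, a gene of glial cells, had low-scoring peaks in CFUMK (3.00 and 2.45), against none in LSK. The promoter of Syt1, a gene of nerve terminals, had no peak in CFUMK, against scores of 3.19 and 3.37 in LSK. Antigen presentation genes had the lowest gained share of the lists, 34.0% of CFUMK elements, with a kept share of 92.8% of LSK elements, followed by housekeeping genes with 37.5% gained and 93.8% kept. Distal elements of housekeeping windows alone had 58.9% gained and 85.2% kept, against 58.6% and 85.2% in all genes, and 64 of the 120 CFUMK elements of this list lay at promoters.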
